A study of Mus musculus with 2 samples.

Results

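Msx1, Msx2, Pitx1, Pitx3, Prrx1, Prrx2, Alx1 and Alx4 are homeobox genes of face, limb and eye development, and they were described here by the Suz12 peaks at and around them. They were chosen by name, as 8 of the 21631 protein-coding genes that RefSeq places on the chromosomes with peaks (build GRCm38), and a peak was assigned to a gene when it overlapped the gene body or lay within 2.5 kb of it. The peaks come from chromatin immunoprecipitation followed by sequencing with an antibody against Suz12 in wild-type mouse embryonic stem cells of the line E14. The cells had been grown on gelatin in serum medium and were then differentiated for 72 h, in medium from which leukemia inhibitory factor was left out and to which all-trans-retinoic acid was added at 1 µM. The series also holds 1 library of Suz12 knockout cells at 0 h, which was not analysed here, so the background of the antibody in cells without Suz12 was not measured and the peaks are taken as the authors called them. The wild-type group has 1 library from 1 cell line, so no value below has a replicate error and no test between conditions was possible. A peak list holds no RNA measurement, so neither the state of the differentiating population nor the expression of these genes was checked.

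Suz12 belongs to the core of PRC2 (Polycomb Repressive Complex 2), which methylates histone H3 on a lysine that marks silent developmental genes, often at CpG-rich starts of genes. Homeobox genes encode transcription factors that bind DNA through a homeodomain. Msx1 and Msx2 act downstream of bone morphogenetic protein (BMP) signals in limb buds, teeth and skull sutures. Pitx1 specifies hindlimb identity and acts in jaw and pituitary, and Pitx3 acts in the lens and in midbrain dopamine neurons. Prrx1 and Prrx2 are factors of limb and facial mesenchyme, and Alx1 and Alx4 of the mesenchyme between the eyes and, for Alx4, of the front edge of the limb bud.

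The deposited list holds 3373 peaks with a median width of 1849 bp, from 318 to 20581 bp. Each peak carries a score given by the authors, from 150.3 to 3233, whose scale the file does not state. A score of 3100 was given to 325 peaks and a higher one to 30, so scores at the top hardly rank the peaks. Reads are not part of the list, so the depth is unknown, and where no peak is listed weaker binding may have fallen under the threshold of the peak calling.

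Suz12 peaks lay at 7 of the 8 genes, and the 8 genes differed widely in how much of them was covered. Pitx1 was covered whole and Msx1 nearly so, Pitx3 was covered at both ends, Alx4, Alx1 and Prrx1 at 1 end, Msx2 had a peak just beyond the gene, and Prrx2 had none. Over all protein-coding genes 13.1% had a peak by the same rule, and over the 13933 genes no shorter than Msx1 and no longer than Prrx1 11.6% did. The genes hold 9 peaks in all, which add up to 50211 bp and cover 32167 of the 201013 bases of the 8 genes. All 9 peaks were wider than the median peak of the list, with widths from 2421 to 14266 bp and a median of 4376 bp. Peaks wider than 5 kb made up 3 of the 9, at Pitx1, Msx1 and Alx4, and 6.61% of the list. The 3 peaks that scored 3100 or more were those same peaks, and the scores of the 9 ran from 357 to 3187 with a median of 2006.

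**Figure D1:**
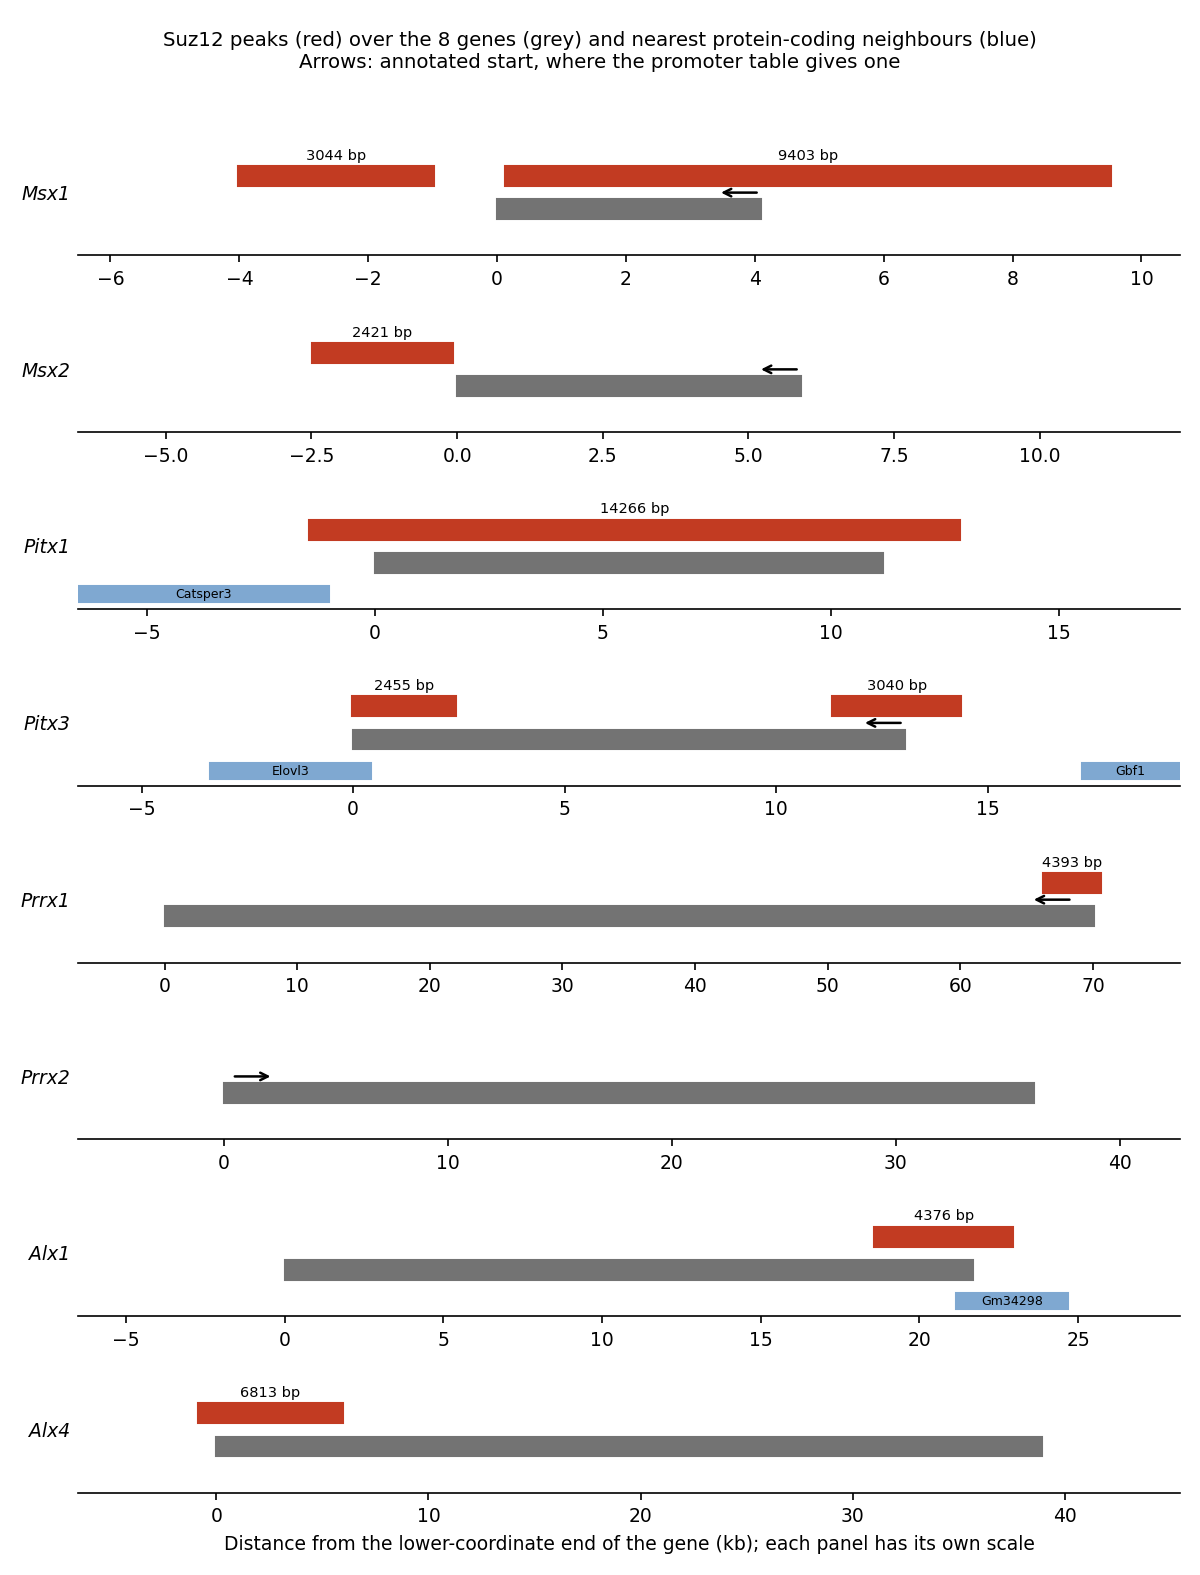
Map of each gene (grey, to scale within its panel) with its Suz12 peaks (red, width in bp) and the nearest protein-coding neighbours that fall in view (blue). The x axis is the distance in kb from the end of the gene with the lower coordinate, and an arrow begins at the annotated start and points along the gene where the promoter table gives a start. Pitx1 lies wholly under a peak of 14266 bp, and Prrx2 has no peak in view.

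Msx1, a repressor needed for teeth and palate, was the only one of the 8 genes besides Pitx3 with 2 peaks. Msx1 lies on chromosome 5 from 37820491 to 37824585 (4095 bp, minus strand). Its main peak, chr5:37820611-37830013, was 9403 bp wide with a score of 3187, and only 51 of the 3373 peaks were wider. This peak covered 3975 bases, or 97.1%, of Msx1 and left 120 bases at the far end uncovered. It ran 5428 bp beyond the annotated start, so that 42.3% of the peak lay in the gene and the rest before it. It also overlapped the antisense transcript Msx1os and the long non-coding RNA Gm33993. The smaller peak, chr5:37816466-37819509 (3044 bp, score 1526), lay 981 bp beyond the far end, and 1101 bp separated the peaks. Joined over gaps of up to 3 kb they formed a domain of 13548 bp, rank 53 of 2990 domains by width.

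Msx2, the paralogue of Msx1 that acts in skull sutures and hair follicles, had no peak at its start or in the gene. Like Msx1 it had a peak beyond the far end. Msx2 lies on chromosome 13 from 53466881 to 53472780 (5900 bp, minus strand). Its only peak, chr13:53464389-53466809, was 2421 bp wide with a score of 357, the lowest of the 9, and 33.4% of the list scored lower. The peak stopped 71 bp short of the far end of Msx2, so that no base of the gene was covered, and it lay 5971 bp from the annotated start. It overlapped Gm33763, a long non-coding RNA gene. Of the 2833 protein-coding genes with a peak, 177 (6.25%) had it beyond the gene only, as Msx2 did.

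Pitx1 had the widest peak of the 8 genes. Pitx1 lies on chromosome 13 from 55825044 to 55836190 (11147 bp), and the peak, chr13:55823600-55837865, was 14266 bp wide with a score of 3100. It ranked 13 of all 3373 peaks by width, covered 100% of Pitx1 and ran 1444 and 1675 bp beyond its lower and upper end. The lower end of this peak also reached 1.14% of Catsper3, a sperm calcium channel subunit gene that ends 995 bp before Pitx1. Covering of at least 95% of the gene, seen at Msx1 and Pitx1, was found at 136 protein-coding genes, or 0.629% of all.

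Pitx3 was the 1 gene of the 8 with separate peaks at both ends and less than 95% covered. Msx1 also had a peak over its start and another beyond its far end, but it was counted as covered whole. Pitx3 lies on chromosome 19 from 46135281 to 46148325 (13045 bp, minus strand). The peak at the start, chr19:46146615-46149654, was 3040 bp wide with a score of 1431 and ran 1329 bp before and 1710 bp after the start. The peak at the far end, chr19:46135254-46137708, was 2455 bp wide with a score of 1251 and lay almost wholly in Pitx3, at 98.9%. It also overlapped the last part of Elovl3, a fatty acid elongase gene that overlaps Pitx3 by 414 bp, so the 2 genes cannot be told apart there. Between the peaks 8906 bp of Pitx3 had none, and 31.7% of the gene was covered in all. Separate peaks at both ends with less than 95% covered were found at 119 of the 2833 genes with a peak (4.20%).

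Prrx1 and Prrx2, which act together in limb and face mesenchyme, stood on opposite sides of the rule. Prrx1, the longest of the 8 genes, lies on chromosome 1 from 163245119 to 163315145 (70027 bp, minus strand). Its peak, chr1:163311328-163315720, was 4393 bp wide with a score of 2006 and ran 2070 bp before and 2322 bp after the start. The annotated start used, at 163313650, lies inside the gene rather than at its upper end, which the peak also covered. This peak covered 5.45% of Prrx1, since 66209 bases towards the far end had no peak. Prrx2 lies on chromosome 2 from 30845064 to 30881251 (36188 bp, plus strand) and had no peak. The nearest peak, chr2:30800761-30802156 (1396 bp, score 597), lay 42907 bp away and overlapped 1700001O22Rik. On the other side the next peak was 432394 bp away. Prrx2 therefore stayed without a peak at a reach of 5 kb as well.

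Alx1 and Alx4, which shape the middle of the face, each had 1 peak at 1 end. The peak of Alx1, chr10:103026428-103030803, was 4376 bp wide with a score of 2560. It covered 14.4% of Alx1 (chromosome 10 from 103007847 to 103029549, 21703 bp) at the upper end and ran 1254 bp beyond it. That peak also overlapped Gm34298, a protein-coding model that overlaps the end of Alx1 by 565 bp and of which 51.3% was covered. The peak of Alx4, chr2:93641587-93648399, was 6813 bp wide with a score of 3100. It covered 15.3% of Alx4 (chromosome 2 from 93642434 to 93681341, 38908 bp) at the lower end and ran 847 bp beyond it. Cover of 1 end only was the commonest pattern in the list, at 1847 of 2833 genes with a peak (65.2%).

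By summed peak width the order of the 8 genes was Pitx1 (14266 bp), Msx1 (12447 bp), Alx4 (6813 bp), Pitx3 (5495 bp), Prrx1 (4393 bp), Alx1 (4376 bp), Msx2 (2421 bp) and Prrx2 (0 bp). With 1 library no spread can say which neighbours in this order differ, and Prrx1 and Alx1 had nearly the same width. The median over the 7 genes with a peak was 5495 bp, against 2105 bp over all 2833 genes with a peak. Msx1 and Pitx1 exceeded 98.2% and 98.7% of those genes, and Msx2 exceeded 59.3%. By share of the gene covered the order was Pitx1, Msx1, Pitx3, Alx4, Alx1, Prrx1, with Msx2 and Prrx2 at 0. The median share over all 8 was 14.9%, and over the 7 with a peak it was 15.3%, against 4.35% over all genes with a peak and 8.42% over those of the members' range of lengths. The share depends on gene length: 4376 bp at Alx1 and 4393 bp at Prrx1 covered 14.4% and 5.45% of genes of 21703 and 70027 bp.

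**Figure D2:**
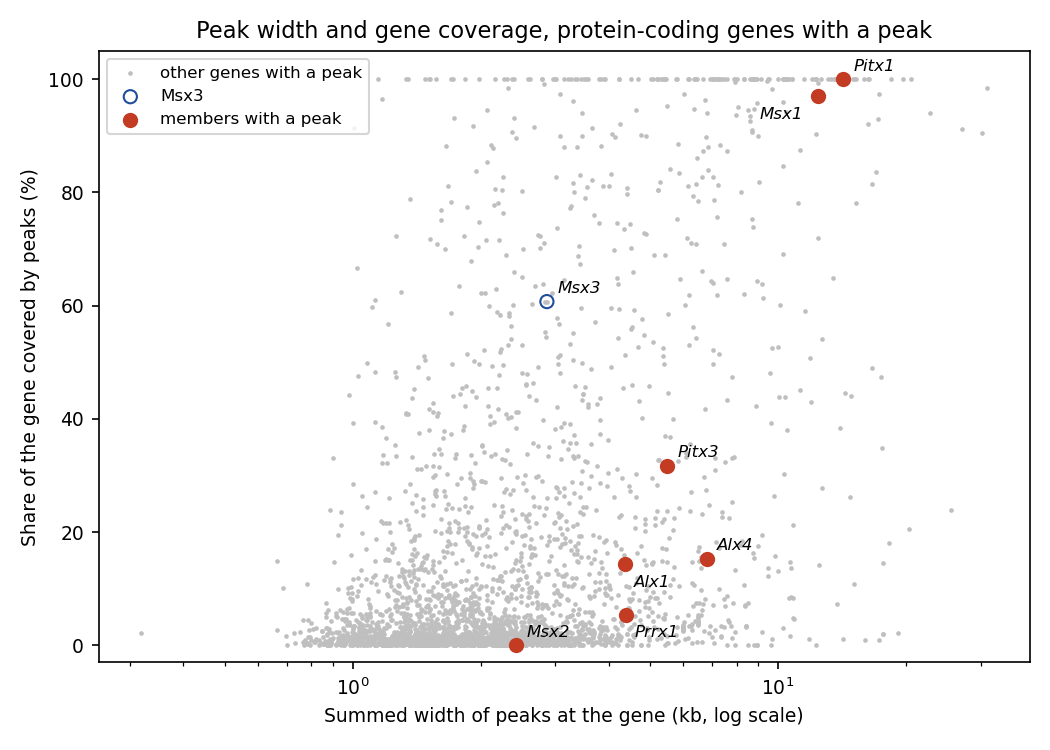
Share of the gene covered by peaks (%) against the summed width of its peaks (kb, log scale) for protein-coding genes with a peak, 1 point per gene. Members with a peak are red and their relative Msx3 is an open blue circle; Msx1 and Pitx1 sit at the upper right, and Msx2 sits at 0% with 2421 bp.

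Msx3, a relative of Msx1 and Msx2 and a gene of the dorsal neural tube, had 1 peak of 2865 bp with a score of 2331 that covered 60.7% of it and ran over its start. Cover thus ran from 0% at Msx2 over 60.7% at Msx3 to 97.1% at Msx1, and from 31.7% at Pitx3 to 100% at Pitx1. Alx1 and Alx4 had nearly the same share, at 14.4% and 15.3%.

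Within 100 kb of each of the 7 genes with a peak, the list holds no peak besides the gene's own. Peaks are sparse in general: over all protein-coding genes, with or without a peak, the median number within 100 kb was 0 and the mean 0.69. How many of all genes with a peak have no further peak within 100 kb is not given. It is therefore not known whether this sets the 7 genes apart. Past this reach the next peak was closest at Msx1, 103050 bp below the gene, and at Pitx3, 168055 bp above it. At Prrx1 the nearest further peaks were 766870 and 2993323 bp away. Of each gene with 100 kb on either side, peaks covered from 0.591% at Prrx2 to 6.76% at Pitx1, the gene's own peaks included. Over all protein-coding genes, most of which have no peak, the median was 0% and the mean 0.688%. This contrast therefore does not describe the surroundings apart from the genes' own peaks. Of the 16 nearest protein-coding neighbours, 1 on each side of each gene, 12 had no peak and 4 had 1, beside the 13.1% of all protein-coding genes with a peak. The 12 were Cytl1 and Stx18 of Msx1, Gm38564 of Msx2, Macroh2a1 of Pitx1, Gbf1 of Pitx3, Mroh9 and Gorab of Prrx1, Asb6 and Ptges of Prrx2, Rassf9 of Alx1, and Cd82 and Ext2 of Alx4. Catsper3, Elovl3 and Gm34298 had only a member's own peak, and the dopamine receptor gene Drd1, 578402 bp from Msx2, had a peak of its own.

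The series asks in its title how PRC2 comes to CpG islands, so the letters at the annotated starts were set beside the peaks. The RefSeq promoter table (build GRCm38.p6) gives a window of 300 bases, 250 before to 50 after the start, for Msx1, Msx2, Pitx3, Prrx1 and Prrx2. Pitx1, Alx1 and Alx4 were not analysed in this way. Shown are the 250 bases before the start of the Msx and Prrx pairs, because in each pair 1 start lay under a peak and the other did not. All are written 5′ to 3′ along the gene with each CpG in capitals. Msx1 is chr5:37824586-37824835 (minus strand, under the peak), Msx2 is chr13:53472781-53473030 (minus strand, no peak), Prrx1 is chr1:163313651-163313900 (minus strand, under the peak) and Prrx2 is chr2:30845117-30845366 (plus strand, no peak).
Msx1: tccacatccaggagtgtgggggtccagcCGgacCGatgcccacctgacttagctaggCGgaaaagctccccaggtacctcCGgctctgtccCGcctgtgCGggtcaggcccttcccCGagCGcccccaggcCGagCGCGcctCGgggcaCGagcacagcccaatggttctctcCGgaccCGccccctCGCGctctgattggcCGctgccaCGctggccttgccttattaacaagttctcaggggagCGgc
Msx2: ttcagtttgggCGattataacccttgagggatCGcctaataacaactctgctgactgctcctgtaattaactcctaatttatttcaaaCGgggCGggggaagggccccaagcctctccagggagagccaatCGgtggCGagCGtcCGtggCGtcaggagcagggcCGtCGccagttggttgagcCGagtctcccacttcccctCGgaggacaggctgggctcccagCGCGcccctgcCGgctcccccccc
Prrx1: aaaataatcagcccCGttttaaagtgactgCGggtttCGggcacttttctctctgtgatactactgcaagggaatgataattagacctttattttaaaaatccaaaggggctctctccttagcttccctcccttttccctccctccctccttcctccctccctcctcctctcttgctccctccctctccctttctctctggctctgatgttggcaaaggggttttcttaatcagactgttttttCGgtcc
Prrx2: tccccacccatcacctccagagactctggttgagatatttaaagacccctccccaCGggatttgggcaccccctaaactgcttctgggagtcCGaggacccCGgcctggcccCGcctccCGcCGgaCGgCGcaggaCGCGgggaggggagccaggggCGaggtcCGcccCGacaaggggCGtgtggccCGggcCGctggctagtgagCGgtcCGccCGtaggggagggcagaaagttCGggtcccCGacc

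The starts with a peak (6, 20 and 29 CpG in the window) and those without (22 and 28) overlapped in CpG number. In the full window Msx1 had 29 CpG, a GC content of 70.0% and a ratio of observed to expected CpG of 0.79. Msx2, with no peak at the start, had 22 CpG, 61.0% GC and a ratio of 0.79. Prrx2, with no peak, had 28 CpG, 70.3% GC and a ratio of 0.76, while Prrx1, whose whole window lay under a peak, had 6 CpG, 47.7% GC and a ratio of 0.36. Pitx3, whose window was also under a peak throughout, had 20 CpG, 71.7% GC and a ratio of 0.54. The stretch printed for Prrx1 shows 4 CpG and long runs of c and t, whereas that of Prrx2 shows 21 CpG. Only 4.39% of the promoters with a peak had fewer CpG than Prrx1, and 66.0% had fewer than Prrx2. The windows of Prrx1 and Prrx2 lie wholly inside these genes, so the letters at their outer ends were not examined.

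Over all 21045 promoter windows of protein-coding genes, 8.22% overlapped a peak, and 3 of the 5 members' windows did. The share rose with the number of CpG, from 0 of 938 windows without a CpG (exact 95% binomial interval up to 0.392%) to 17.5% (15.2 to 20.1) with 41 or more. Windows with 6 to 10 CpG, the class of Prrx1, overlapped a peak in 6.65% (5.74 to 7.65), and those with 26 to 30, the class of Msx1 and Prrx2, in 13.4% (11.9 to 15.1). A CpG-rich start without a peak, as at Prrx2 and Msx2, was thus the common case in this list. Windows with at least 50% GC and a ratio of at least 0.6, as at Msx1, Msx2 and Prrx2, overlapped a peak in 12.5% (11.8 to 13.2) of 9599, and the others, with Pitx3 and Prrx1, in 4.64% (4.26 to 5.04) of 11446. The intervals cover counting error only and take the windows as independent. The 21045 windows come from 17274 genes, and 1 peak can cover several starts of a gene, so the intervals may be too narrow. A window of 300 bases is shorter than most CpG islands, so an island beside the window is not seen.

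**Figure D3:**
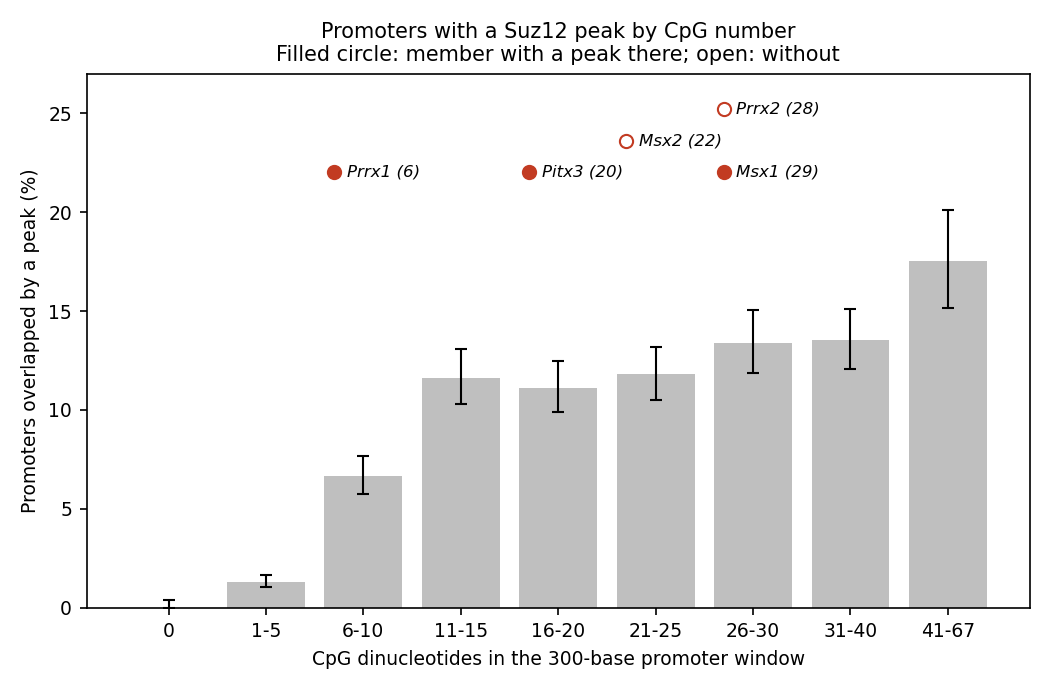
Percentage of promoter windows of protein-coding genes overlapped by a Suz12 peak (bars, with exact 95% binomial intervals) by the number of CpG in the 300-base window. Circles mark the members by their CpG number, filled with a peak at the start (Prrx1, Pitx3, Msx1) and open without (Msx2, Prrx2); their height has no meaning.

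Peaks over the starts of Msx1, Pitx3 and Prrx1 differed in how they lay. At Msx1 the peak reached further before the start (5428 bp) than after it (3974 bp). At Pitx3 and Prrx1 it reached further after the start, as did 81.0% of the 1687 cases of a start under a peak. The median reach in those cases was 641 bp before and 1313 bp after, so all 3 members' peaks reached further on both sides. For Prrx1 the reach was counted from a start that lies inside the gene.

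A search of the 5 windows for 5 short motifs on both strands described them further. The GC box GGGCGG was found in Msx1, Msx2, Pitx3 and Prrx2 but not in Prrx1, and in 46.7% of all windows. The CCAAT box was found in Msx1 and Msx2, and in 38.5% of all. The homeodomain core TAATTA was found in Msx2, at positions -187 to -182 from the start, and in Prrx1, at -173 to -168, and in 4.47% of all. None of the 5 windows held the TATA box TATAAA, found in 12.7%, or TAATCC, the letters bound by bicoid-type homeodomains such as those of Pitx proteins, found in 6.39%. A match says only that these letters are there.

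Other genes of face and limb development were read by the same rule, against the 13.1% of all protein-coding genes. Of 63 transcription factor genes of face and limb, 53 had a peak (84.1%, exact 95% interval 72.7 to 92.1), with a median summed width of 7811 bp among those 53. This list and those below were picked by hand with earlier results known. Their intervals cover counting error only, take the genes as independent, and do not extend to other genes. The median share of the gene covered was 56.2% among those 53, against 15.3% among the 7 members with a peak. Genes of this list are shorter, with a median length of 7208 bp over the 63 against 17374 bp over the 8 members. The widest cover was at Lmx1b (18303 bp), which sets the back of the limb, Pax7 (17712 bp) and Pax3 (13808 bp) of neural crest and muscle, Lhx2 (17476 bp), Tfap2a (14860 bp) of neural crest, and Tbx2 (13801 bp). Of the 8 genes described here, only Pitx1 reached this range. The 10 without a peak were Tbx22, Eya1, Six4, Meis1, Meis2, Snai1, Snai2, Sall4, Gli3 and Tcf21, and Prrx2 shares that state with them. At least 95% of the gene was covered at 13 of the 53, and none of the 53 had a peak beyond the gene only, as Msx2 did.

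Signals that act in the same tissues were read in the same way. Of 36 genes of BMP, hedgehog, fibroblast growth factor and Wnt signalling, 17 had a peak (47.2%, 30.4 to 64.5), with a median summed width of 3318 bp among the 17. Shh, the hedgehog ligand of limb and face, had the widest cover (10445 bp, 94.3% of the gene), followed by Wnt3, Wnt5a, Fgf9, Ihh and Fgf8. Bmp4, a known inducer of Msx genes, had no peak, whereas Bmp2 had 1 of 3318 bp with a score of 1368 and Bmp7 1 of 1883 bp with a score of 217. The genes of the BMP antagonists Grem1 (2611 bp), Chrd (1908 bp) and Nog (1862 bp, 77.4% of the gene) had a peak as well. The BMP receptor genes Bmpr1a, Bmpr1b and Acvr1 had none, nor did the signal carriers Smad1, Smad5 and Smad9, the inhibitors Smad6, Smad7 and Bambi, or the BMP targets Id1, Id2 and Id3. Bmp5, Gdf5, Fgf10, Fgfr1, Fgfr2 and Edn1 had none either.

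Genes linked to Pitx3 in dopamine neurons and lens had a peak in 11 of 18 cases (61.1%, 35.7 to 82.7). The regulators Pax6 (14022 bp), Otx2 (13469 bp), Nr4a2 (10043 bp), Foxa2 (8681 bp), Lmx1a (7670 bp) and Prox1 (6936 bp) had the widest cover. The others with a peak were En2 (6767 bp), the lens factors Foxe3 (3330 bp) and Maf (2295 bp), the dopamine transporter gene Slc6a3 (1365 bp, score 280) and the dopamine receptor gene Drd2 (821 bp, score 186). No peak lay at Th and Ddc, which make dopamine, at its vesicle transporter gene Slc18a2, at Aldh1a1, or at the lens genes Cryaa, Cryab and Mip. Of 16 skeletal matrix and differentiation genes, 5 had a peak (31.3%, 11.02 to 58.7), namely Comp (5403 bp), Col2a1 (3322 bp), Sp7 (3002 bp), Acan (2021 bp) and Sox5 (1787 bp). Col1a1, Col1a2, Col3a1, Postn, Tnc, Alpl, Ibsp, Bglap, Spp1, Sox6 and Matn1 had none.

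**Figure D4:**
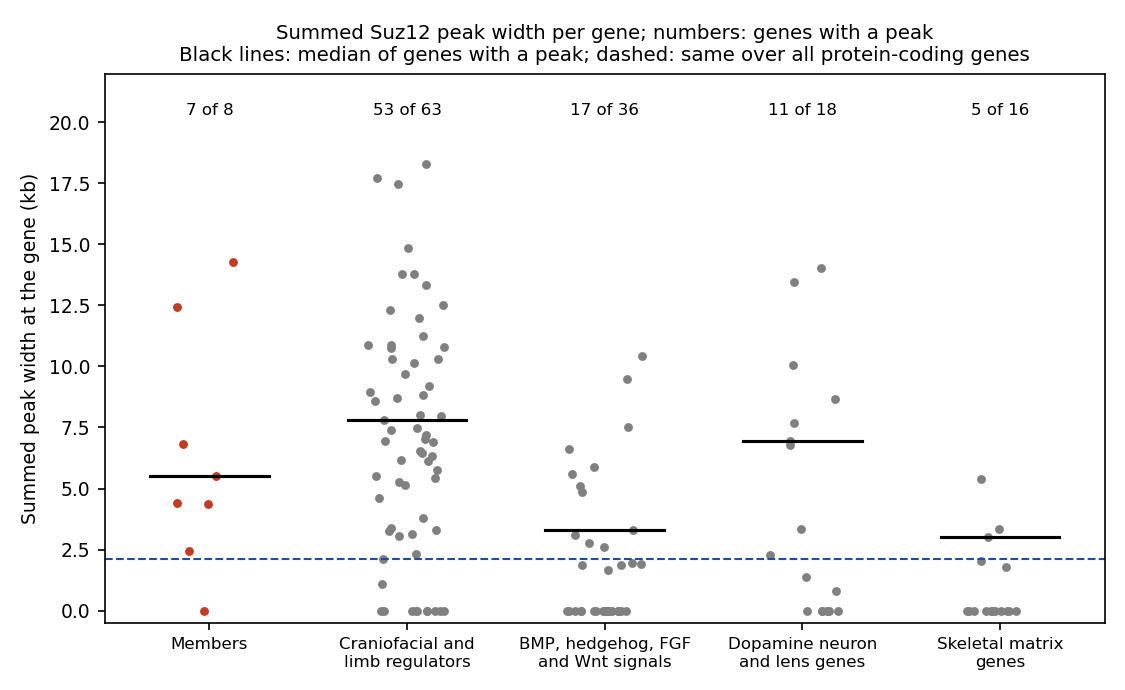
Summed width of Suz12 peaks at each gene (kb), 1 point per gene, for the 8 members (red) and the 4 lists (grey), with genes without a peak at 0. Black lines are medians over genes with a peak, the dashed line is that median over all protein-coding genes (2105 bp), and the numbers give genes with a peak; the members run from 0 to 14266 bp.

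The gene most like each member was sought among 72 genes, the members, Msx3 and the face and limb factors, by the number of peaks, the log2 of the summed width and the fraction covered, in this 1 library. Pitx1 lay nearest to Barx1, a factor of teeth and stomach (1 peak of 13317 bp, 100% covered), at a distance of 0.02 in units of SD. Msx1 lay nearest to Tbx2 (2 peaks, 13801 bp, 99.9% covered; 0.08). Alx4 and Alx1 both lay nearest to Lhx8 (1 peak of 6528 bp, 14.9% covered; 0.02 and 0.12). Prrx1 lay nearest to Barx2 (4602 bp, 1.51% covered; 0.10), Msx2 to Sall1 (2121 bp, 2.11% covered; 0.07) and Pitx3 to Lhx6 (6888 bp, 24.7% covered; 0.19). Prrx2 shared its values of 0 with all 10 genes of the list without a peak.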

How the data were processed

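The deposited file is a peak list of the wild-type 72 h library, with a start, an end and a score for each peak. Bowtie, MACS and build GRCm38 (mm10) are named in the submitters' processing notes; no source used here gives their versions or settings, the control, or whether libraries were pooled. The scale of the score deposited by the authors is not stated, and it was used only to describe and filter peaks. Starts were counted from 0 in the file and are given from 1.

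Gene positions came from the RefSeq table of GRCm38.p6, which has no strand or exons, so exon, intron and untranslated parts were not told apart. Starts and strands came from the RefSeq promoter table, which matched 5 of the 8 genes and holds 21045 windows of 17274 protein-coding genes. Peak assignment, cover and domains were computed in Python 3.11.15 (pandas 2.3.3, scipy 1.17.1), tested on simulated peaks and checked with bedtools 2.31.1, which found the same 2833 genes. Base positions in promoters count the start as 0.

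The members and gene lists were chosen with earlier results of these data known. All members are named, with Msx3, nearest neighbours, nearest likenesses, up to 6 genes of widest cover per list and all list members without a peak; Bmp2, Bmp7, Grem1, Chrd, Nog, En2, Foxe3, Maf, Slc6a3 and Drd2 were named after their values were seen. Some planned genes are not reported here. No test was made, since the group has 1 library.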

Additional observations from a re-analysis of the deposited data

How the results depend on the processing

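All 31 alternative values stayed within 1.5 times the main value, or within its binomial interval for the list share, and 0 reversed. Counts, medians and shares have no direction to reverse, and with 8 genes these limits are wide. The labels therefore say little about how stable the counts are. The median widths varied here were taken over all 8 genes, with Prrx2 as 0. They were 4944 bp for the summed width and 4384.5 bp for the widest domain. The median of 5495 bp over the 7 genes with a peak was not varied. The count of 7 genes with a peak became 6 when the peak had to overlap the gene, beside 12.3% of all genes. It also became 6 at or above the median score of 572, and Msx2 was the gene lost both times. The count stayed at 7 within 1 kb, within 5 kb, with a peak near an outer end (11.7% of all genes) and at scores of at least 301. Shares over all genes are not given for the 1 kb, 5 kb and score settings. The number of peaks ranged from 7 to 9. With at least 50% of the peak required within reach, the smaller Msx1 peak was lost. The settings altered only the values of Msx1 and Msx2, which lie away from the middle, so the medians say little about the settings. The share of face and limb factors with a peak was 79.4% at or above the median score, without a share over all genes to set beside it. The CpG ratio of the 5 promoters had a median of 0.76, and 0.68 over the bases before the start. No paired analysis was possible because the wild-type group has 1 library and the other group was not analysed here. The unknown depth limits every absence, that of Prrx2 included.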
